A study of Mus musculus with 4 samples.

Results

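Endothelial cells line the blood vessels, and 10 genes used as their markers were followed here in tissue captured from molar tooth germs of mouse embryos. The genes were chosen by name: the growth factor receptor genes Kdr, Flt1, Tek, Tie1 and Eng, the junction and adhesion genes Cdh5, Pecam1, Esam and Cldn5, and the sialomucin gene Emcn. All 10 were found among the 22072 genes of the deposited tables, and all 10 were among the 10502 genes tested, those averaging 1 FPKM or more (a read density: fragments per kilobase of transcript, corrected for the number mapped). Mesenchyme of the upper (maxillary) and lower (mandibular) molars was cut from frozen head sections by laser at embryonic day 13.5 and sequenced as RNA. The mutant was Bmp4f/f;Wnt1Cre, in which the floxed gene of the signalling ligand Bmp4 is cut in cells that have expressed Wnt1-Cre, chiefly the neural crest. The control was Bmp4f/+, with 1 floxed allele and no Cre named in its label, so any effect of the Cre transgene itself and the loss of Bmp4 cannot be told apart. All mice were of mixed background, and both genotypes carry at least 1 floxed allele. Each of the 4 combinations of genotype and molar was 1 library, and the series description speaks of 3 pairs of control and mutant samples pooled for extraction.

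Vessels of the head are lined by endothelium that comes from mesoderm, while the pericytes and smooth muscle around facial vessels come largely from neural crest. Endothelial cells receive VEGF through the receptors encoded by Kdr and Flt1 and angiopoietins through the receptor encoded by Tek, and they are joined by VE-cadherin, the product of Cdh5. A tooth germ at this stage is a bud of epithelium with condensing mesenchyme around it, and small vessels run in and around that mesenchyme.

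Depth on annotated transcripts was about 4820000 to 5550000 reads per library, from the deposited coverage. At that depth 3 reads on 2 kb of transcript correspond to 0.101 to 0.115 FPKM. Bmp4, the targeted gene, had 24.8 FPKM (upper) and 27.2 FPKM (lower) in controls, against 4.75 and 4.90 FPKM in mutants. The mesenchyme markers Prrx1 and Msx1 lay between 132.3 and 143.7 FPKM and between 98.4 and 149.6 FPKM. The 10 endothelial markers summed to between 37.8 and 50.1 FPKM. In bulk RNA of this kind, fewer endothelial cells and less RNA per endothelial cell cannot be told apart. Within a molar each genotype has 1 library, so a difference there has no test.

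The start of each gene sets where its regulatory sequence is read. The upstream sequence is shown for the 5 genes that held either of the searched cores of the ETS transcription factor family. ETS factors such as Erg and Fli1 are general regulators of endothelial genes. RefSeq promoter windows on build GRCm38.p6 (250 bases before to 50 bases after the start) were at hand for 7 of the 10 genes, and the cores AGGAAG and CCGGAA were searched on both strands. Either core was in 5 of the 7 windows, against 45.2% of all 32851 windows. Other forms of the ETS core were not searched. The 250 bases before the start follow, 5′ to 3′ on the strand of the gene, with the searched ETS cores of either strand in capitals.
Flt1: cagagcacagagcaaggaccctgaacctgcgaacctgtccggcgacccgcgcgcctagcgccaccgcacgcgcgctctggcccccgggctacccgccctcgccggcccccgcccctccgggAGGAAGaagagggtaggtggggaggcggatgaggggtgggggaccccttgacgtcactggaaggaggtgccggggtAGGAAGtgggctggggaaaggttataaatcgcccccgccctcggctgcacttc
Eng: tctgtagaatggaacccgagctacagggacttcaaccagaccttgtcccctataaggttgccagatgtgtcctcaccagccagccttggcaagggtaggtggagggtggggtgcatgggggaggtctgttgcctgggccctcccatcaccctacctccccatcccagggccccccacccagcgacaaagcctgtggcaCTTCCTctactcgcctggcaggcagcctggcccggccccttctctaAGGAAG
Emcn: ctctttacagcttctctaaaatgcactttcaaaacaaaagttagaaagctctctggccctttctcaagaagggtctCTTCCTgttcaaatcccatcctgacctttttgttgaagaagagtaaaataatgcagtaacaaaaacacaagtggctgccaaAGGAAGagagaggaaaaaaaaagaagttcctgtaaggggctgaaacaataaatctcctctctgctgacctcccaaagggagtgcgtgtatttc
Tie1: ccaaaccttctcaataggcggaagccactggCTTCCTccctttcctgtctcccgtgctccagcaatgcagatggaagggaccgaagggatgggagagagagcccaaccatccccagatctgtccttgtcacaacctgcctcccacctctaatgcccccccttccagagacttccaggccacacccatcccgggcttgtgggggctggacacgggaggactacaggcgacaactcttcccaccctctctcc
Kdr: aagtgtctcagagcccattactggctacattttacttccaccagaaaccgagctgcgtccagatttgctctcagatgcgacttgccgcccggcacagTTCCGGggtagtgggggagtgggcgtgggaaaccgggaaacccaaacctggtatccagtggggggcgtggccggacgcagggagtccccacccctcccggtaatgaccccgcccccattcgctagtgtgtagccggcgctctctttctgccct
These stretches lie at chr5:147726012-147726261 (Flt1, minus strand), chr2:32646345-32646594 (Eng, plus), chr3:137340828-137341077 (Emcn, plus), chr4:118489850-118490099 (Tie1, minus) and chr5:75978456-75978705 (Kdr, minus). AGGAAG was in 4 windows (Flt1, Tie1, Eng and Emcn) and in 35.4% of all windows, and CCGGAA was in the Kdr window and in 14.9% of all windows. The SOX core AACAAT was in the Tek and Emcn windows (10.7% of all windows), the GATA core AGATAA in the Tek window (11.2%), and the forkhead core GTAAACA in none of the 7 (3.65% of all windows). A match describes letters in a window and is not a binding site.

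The levels of the 10 genes were compared first, as FPKM, which is per transcript length. Cdh5 was the most abundant at 13.9 ± 2.71 FPKM (mean and SD over the 4 libraries), and the range of its libraries, 10.3 to 16.3 FPKM, lay above all others. Pecam1 followed at 7.05 ± 0.436 FPKM (SD, n = 4 libraries), and its lowest library was above the highest of every remaining gene. Eng, Kdr and Emcn came next with means of 4.87, 4.83 and 4.56 FPKM and overlapping ranges. Tie1, Flt1, Esam, Cldn5 and Tek formed the lowest tier with means between 1.39 and 2.41 FPKM. Within that tier each gene overlapped its neighbours in the order, and the highest value there, 2.66 FPKM for Tie1, was below the lowest Emcn value, 3.55 FPKM. Among all genes tested, mean FPKM placed Cdh5 at percentile 81.8 and Tek at percentile 7.23. Cdh5 alone made up between 27.2% and 32.6% of the summed FPKM of the 10 genes.

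**Figure D1:**
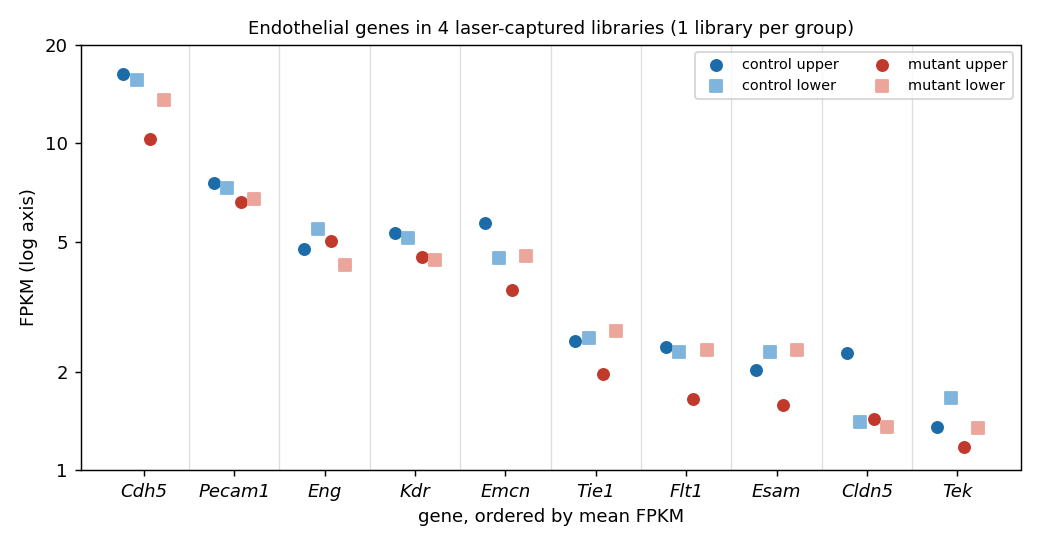
FPKM (log axis) of the 10 endothelial genes in each library, ordered by mean, with 1 point per library and no error bars because each group is 1 library. The mutant upper molar (dark red circles) is the lowest point for 7 of the 10 genes, from 1.18 FPKM for Tek to 10.3 FPKM for Cdh5.

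Across the members the mutant upper molar stood lowest. It had the lowest of the 4 values for 7 of the 10 genes (Flt1, Tek, Tie1, Cdh5, Pecam1, Esam and Emcn), as did 17.6% of all genes tested. The summed FPKM of the 10 genes was 50.1 in the control upper, 48.2 in the control lower, 37.8 in the mutant upper and 43.5 in the mutant lower molar. The mutant sum was thus 75.4% of the control sum for upper molars and 90.3% for lower ones. As a share of all FPKM in a library, the 10 genes made up 0.0331%, 0.0318%, 0.0238% and 0.0293% in the same order. The sum rested on between 2049 and 2371 approximate reads per library.

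The VEGF receptors came first by role. Kdr (VEGFR2, the main signalling receptor for VEGF-A; chromosome 5, 76329299 to 76374453, mm9) had 5.31 FPKM (upper) and 5.12 FPKM (lower) in controls, against 4.49 and 4.40 FPKM in mutants. Both mutant values were below both control values, by a similar amount in each molar. Kdr had an effect of -0.19 ± 0.11 over both molars (log2 and its SE, 2 libraries of each genotype, limma adjusted p = 0.51). Flt1 (VEGFR1, which binds VEGF-A and limits its action; chromosome 5, 148373772 to 148537564) had 2.37 FPKM (upper) and 2.29 FPKM (lower) in controls, against 1.65 FPKM in the mutant upper and 2.33 FPKM in the mutant lower molar. The low value was that of 1 library, the mutant upper molar, and the other 3 libraries lay close together. Its mutant value was 69.7% of control in the upper molar, with a 95% Clopper-Pearson counting interval of 56.0% to 86.5%, and 101.7% in the lower molar, with an interval of 82.8% to 124.3%. These intervals use approximate reads, 154 and 195 in the upper molar, and cover counting error only, since amplified reads are not independent molecules.

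Tek and Tie1 encode the angiopoietin receptor Tie2 and its orphan partner, which modulates Tie2 signalling. Tek (chromosome 4, 94405991 to 94541630) had 1.35 FPKM (upper) and 1.66 FPKM (lower) in controls, against 1.18 and 1.35 FPKM in mutants. The higher mutant value and the lower control value were nearly equal, and between 82 and 101 approximate reads stood behind each. Tie1 (chromosome 4, 118143796 to 118162454) had 2.48 FPKM (upper) and 2.53 FPKM (lower) in controls, against 1.97 FPKM in the mutant upper and 2.66 FPKM in the mutant lower molar. Its highest and its lowest value were thus both from mutants, and the counting interval of the upper difference (61.4% to 103.6% of control) reached past 100%. Eng encodes endoglin, a co-receptor for BMP9, BMP10 and TGF-beta that is also found on some mesenchymal and white blood cells. Eng (chromosome 2, 32502115 to 32538189) had 4.73 FPKM (upper) and 5.48 FPKM (lower) in controls, against 5.03 and 4.23 FPKM in mutants. It was the 1 member with a higher mutant value in the upper molar, at 106.4% of control (counting interval 88.7% to 128.7%, so within counting error), and it had 77.1% of control in the lower molar (counting interval 63.7% to 93.2%).

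Among the junction genes, Cdh5 differed most between genotypes. VE-cadherin, its product, is the adherens junction cadherin of endothelium and largely restricted to it. Cdh5 (chromosome 8, 106625525 to 106668402) had 16.3 FPKM (upper) and 15.6 FPKM (lower) in controls, against 10.3 and 13.5 FPKM in mutants. Both mutants were below both controls, and the mutant upper molar was lowest. The mutant value was 63.0% of control in the upper molar (counting interval 56.7% to 70.0%, on 609 and 852 approximate reads) and 86.5% in the lower molar (78.3% to 95.6%). Over both molars the effect was -0.41 ± 0.13 (log2, SE), which missed the threshold (limma adjusted p = 0.28, limma unadjusted p = 0.019). An unadjusted limma p under 0.05 was reached by 1 of the 10 genes, Cdh5, and by 13.2% of all genes tested.

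Pecam1 encodes CD31, an adhesion molecule of endothelial cell contacts that platelets and white blood cells also carry. Pecam1 (chromosome 11, 106515532 to 106576595) had 7.54 FPKM (upper) and 7.28 FPKM (lower) in controls, against 6.60 and 6.77 FPKM in mutants. The mutants were below the controls in both molars, but by less than counting error in each (intervals 74.8% to 102.5% and 79.1% to 109.0% of control). Esam, an immunoglobulin family member of tight junctions that is also on platelets (chromosome 9, 37335674 to 37345904), had 2.03 FPKM (upper) and 2.30 FPKM (lower) in controls, against 1.58 FPKM in the mutant upper and 2.32 FPKM in the mutant lower molar. Between 44 and 61 approximate reads stood behind these Esam values, and no difference between libraries was detectable at this depth. Cldn5, the main claudin of endothelial tight junctions (chromosome 16, 18776940 to 18778355), had 2.28 FPKM in the control upper molar. The other 3 libraries had between 1.36 and 1.44 FPKM of Cldn5. The high value rested on 42 approximate reads against 26 to 30 in the others, and the intervals of both differences from it reached past 100%.

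Emcn encodes endomucin, a sialomucin on the surface of venous and capillary endothelium. Emcn (chromosome 3, 137004042 to 137094033) had 5.70 FPKM (upper) and 4.47 FPKM (lower) in controls, against 3.55 and 4.53 FPKM in mutants. The genotypes overlapped, with the lower molars nearly equal and the upper molars at the extremes. In the upper molar the mutant had 62.2% of the control value (counting interval 46.0% to 84.5%, 76 and 109 approximate reads), and in the lower molar 101.3% (74.4% to 137.5%).

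The genotype comparison over both molars asked whether vessel markers in the captured mesenchyme differed when Bmp4 was cut in neural crest. limma called 0 of the 10 genes, where it called 0.8% of all genes tested (0.343% higher and 0.457% lower in the mutant). All 10 effects were below 0, as were 53.8% of all genes tested, and they ran from -0.41 for Cdh5 to -0.09 for Tie1 (log2). The 10 genes mark the same cells in the same 4 libraries, so counts of them, here and elsewhere, are not counts of independent observations. The 9 genes other than Cdh5 had limma adjusted p-values from 0.51 to 0.83. The median effect was -0.15, beside -0.015 over all genes tested. Both mutant values were below both control values for 4 of the 10 genes (Kdr, Tek, Cdh5 and Pecam1), as for 23.1% of all genes tested, and 0 of the 10 had both mutants above both controls, beside 18.4%. The mutant was lower in each molar for 5 of the 10 (these 4 and Cldn5), beside 32.4% of all genes, and higher in each molar for 0 of the 10, beside 27.2%. For the other 5 the molars differed in direction, beside 40.2% of all genes. The p-values set the difference against the disagreement between molars, with 1 residual degree of freedom, and do not measure the spread between embryos. Upper and lower molars may have been taken from shared embryos, which the sources leave unstated, and the libraries of a genotype would then not be independent replicates. Without the mutant upper library 8 of the 10 effects were below 0, with a median of -0.12, Cdh5 had -0.23, and Tie1 and Esam had 0.06 and 0.07.

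Within the upper molar 9 of the 10 genes had less in the mutant, with Eng the exception, beside 46.8% of all genes tested. The median of the 10 differences was -0.23 (log2 of FPKM + 1, mutant minus control), beside 0.015 over all genes tested. None of the 10 was past 2-fold, which 0.59% of all genes passed downwards and 0.419% upwards. In the lower molar 6 of the 10 had less in the mutant (Kdr, Tek, Eng, Cdh5, Pecam1 and Cldn5), beside 58.3% of all genes tested, and the median was -0.06, beside -0.05 over all genes. The count in the lower molar was therefore close to the background, and after rescaling by median ratios it was 5 of 10 beside 46.8% of all genes. None of the 10 was past 2-fold there, beside 0.619% of all genes downwards and 0.476% upwards. Counting intervals left out 100% for 4 genes in the upper molar (Kdr, Flt1, Cdh5 and Emcn), beside 30.8% of all genes tested, and for 3 in the lower molar (Kdr, Eng and Cdh5), beside 33.3%. Both counts were close to these shares.

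**Figure D2:**
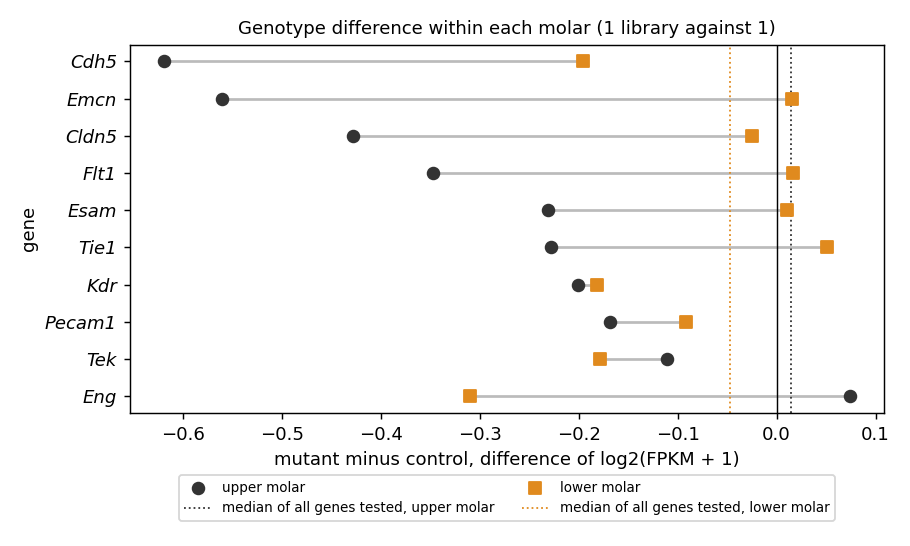
Mutant minus control difference of log2(FPKM + 1) for each endothelial gene in the upper molar (black circles) and lower molar (orange squares), 1 library against 1, with grey lines joining the molars and dotted lines at the median of all genes tested. Upper molar points run from -0.62 for Cdh5 to 0.07 for Eng, and lower molar points from -0.31 for Eng to 0.05 for Tie1.

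The genotype difference was then set side by side between molars. For 8 of the 10 genes the lower molar difference was the higher one, beside 39.7% of all genes tested, and the median shift was 0.26 (log2, lower minus upper molar), beside -0.06 over all genes. Emcn shifted by 0.58, Cdh5 by 0.42 and Cldn5 by 0.40. Kdr and Tek shifted least, by 0.02 and -0.07, and Eng moved the other way by -0.38. This shift was not tested, since the 4 libraries leave no degree of freedom for it.

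Upper and lower molars were also compared within each genotype. In the controls 6 of the 10 genes had less in the lower molar, beside 50.8% of all genes tested, with a median difference of -0.04. None was past 2-fold, beside 0.524% of all genes downwards and 0.448% upwards. In the mutants 3 of the 10 had less in the lower molar (Kdr, Eng and Cldn5), beside 63.3% of all genes, with a median of 0.20, and none past 2-fold (0.619% of all genes downwards and 0.657% upwards). After rescaling by median ratios the count was 1 of 10 (Eng) beside 46.5% of all genes. The mutant lower molar had 147.0% of the mutant upper value for Esam, 141.0% for Flt1, 135.1% for Tie1 and 131.6% for Cdh5, and counting intervals left out 100% for 3 genes, Flt1, Tie1 and Cdh5, beside 34.1% of all genes tested. In the controls they left out 100% for 0 of the 10, beside 22.4%. The lower molar was the higher one in both genotypes for 3 of the 10 (Tek, Tie1 and Esam), beside 20.8% of all genes, and the lower one in both for 2 (Kdr and Cldn5), beside 35% of all genes. limma called 0 of the 10 for molar over both genotypes, where it called 0.724% of all genes tested (0.39% higher and 0.333% lower in the lower molar), and 0 of the 10 had an unadjusted p under 0.05 (10.2% of all genes). The molar effect was below 0 for 5 of the 10, beside 60.5% of all genes, and after rescaling for 1 of the 10, beside 48.1%. It was below 0 for 2 of the 10 without the control upper or without the mutant lower library, and the median of 0.07 became 0.24 without the control upper and -0.06 without the mutant upper library. The smallest adjusted p was for Esam, 0.24 ± 0.14 higher in the lower molar (log2, SE, limma adjusted p = 0.63), which became 0.13 without the mutant upper library. These 2 comparisons share libraries with the genotype comparisons, so the 4 sets of differences are not independent.

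Emcn, Pecam1 and Eng were deposited as several transcripts, which allowed their splice forms to be described. The coding segments that tell the forms apart are shown because the split of FPKM between transcripts turns on them. They were read from GENCODE M21 transcripts matched by RefSeq identifier, with the optional segment in capitals and 20 bases of flanking coding sequence (stop codon included) on each side.
Emcn: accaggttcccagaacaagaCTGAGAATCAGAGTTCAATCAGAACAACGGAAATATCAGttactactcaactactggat
Pecam1: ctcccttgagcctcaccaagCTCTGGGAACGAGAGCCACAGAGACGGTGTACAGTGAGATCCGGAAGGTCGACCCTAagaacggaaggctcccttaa
Eng: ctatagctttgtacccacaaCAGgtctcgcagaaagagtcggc
The Emcn segment is 39 bases long (chr3:137403984-137404022, GRCm38, plus strand), the Pecam1 segment 57 bases long, just before the last coding bases (chr11:106671742-106671798, minus strand), and the Eng segment 3 bases long (chr2:32657516-32657518, plus strand). All 3 keep the reading frame, and the lengths equal the differences between the deposited transcript lengths.

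The Emcn form with the segment took 100% of the gene's FPKM in both controls, 40.8% in the mutant upper and 27.5% in the mutant lower molar. The controls and mutants did not overlap in this share, but how often that occurs among all genes with several transcripts was not computed. That limit applies to Eng below as well. The Pecam1 form with its segment took 26.3%, 26.0%, 48.1% and 27.4% in the control upper, control lower, mutant upper and mutant lower molar, so 1 library differed from the other 3. The Eng form with the 3 bases took 91.6% and 63.0% in the control upper and lower molar, 38.2% in the mutant upper and 0.0116% in the mutant lower molar. Another Eng transcript took 8.42% in the control upper molar and under 0.001% elsewhere.

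These shares rest on few reads. The expected reads on each segment were worked out for reads of 44.2 bases spread evenly, with every transcript of the gene holding the segment. Only 4.3 to 6.1 reads per library would then touch the Emcn segment, 9.4 to 9.8 the Pecam1 segment and 2.7 to 3.5 the Eng segment. These are upper limits, since a form without the segment adds no reads to it. With 1 library per group and so few reads, the difference in splice form between genotypes was not tested. With the transcript of the highest mean FPKM standing for its gene, the Emcn and Eng effects over both molars became -1.37 and -1.51 in place of -0.27 and -0.12 (log2; with all transcripts and a library left out, -0.42 to -0.13 for Emcn and -0.22 to -0.01 for Eng), and limma called neither, and 0 of all genes, under that choice (adjusted p = 0.24 for Emcn and 0.42 for Eng). The 7 single-transcript genes are not touched by this choice, and all 7 had less in the mutant upper than in the control upper molar.

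**Figure D3:**
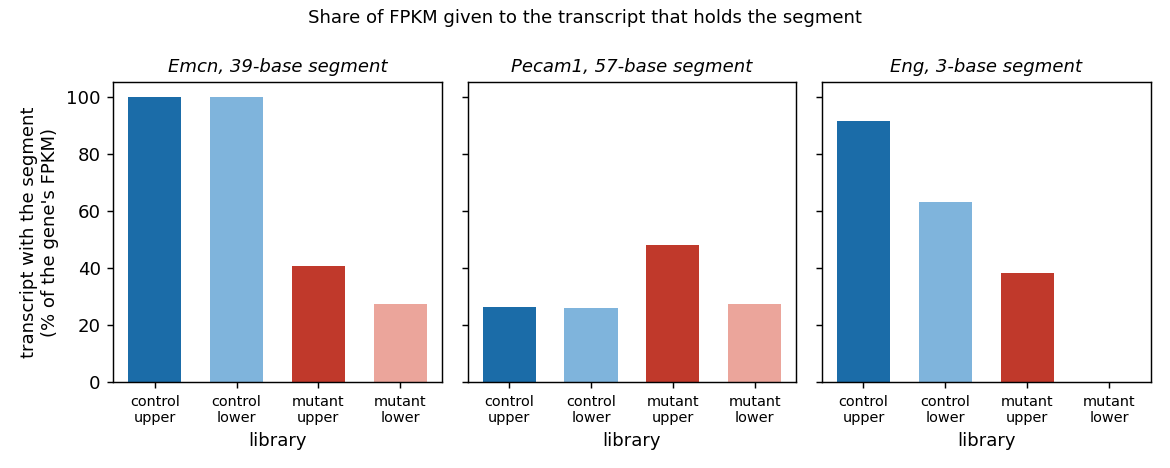
Share of a gene's FPKM (percent, bars from 0, 1 library each, no error bars) that the deposited tables gave to the transcript holding the optional segment of Emcn, Pecam1 and Eng. The Emcn bars are at 100% in both controls and at 40.8% and 27.5% in the mutants, while the Pecam1 bar differs in the mutant upper molar alone.

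Other genes with a part in vessels were read from 6 lists. These covered ligands and further receptors, surface and junction genes, transcription factors, arterial and venous genes, lymphatic genes, and the BMP and TGF-beta branch. Not all of the genes are restricted to endothelium, and their cell of origin was not measured. Together the lists held 75 distinct genes outside the 10, of which 55 were tested. limma called 0 of the 55 for genotype and 0 for molar. In the upper molar 43 of the 55 had less in the mutant, and in the lower molar 34 of the 55, beside 46.8% and 58.3% of all genes tested.

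In the ligand and receptor list 8 of 11 tested genes had less in the mutant upper molar (median -0.15) and 5 of 11 in the mutant lower molar (median 0.08). Vegfa, the main ligand of Kdr and Flt1, had 7.94 FPKM (upper) and 7.51 FPKM (lower) in controls, against 9.79 and 9.17 FPKM in mutants. Both mutant values of Vegfa were above both control values, as for 18.4% of all genes tested. The difference of 0.26 (log2) missed the threshold (limma adjusted p = 0.36). Its receptor Kdr had the reverse order, as had 23.1% of all genes tested, and a relation between them was not tested. Vegfb, a ligand of Flt1, likewise had 18.5 FPKM (upper) and 19.5 FPKM (lower) in controls, against 23.8 and 21.5 FPKM in mutants (limma adjusted p = 0.43). Nrp2, a co-receptor for VEGF-C and semaphorins, had 20.7 FPKM (upper) and 21.0 FPKM (lower) in controls, against 17.5 and 14.5 FPKM in mutants. Aplnr, the apelin receptor, had its lowest value, 7.58 FPKM, in the mutant upper and its highest, 12.3 FPKM, in the mutant lower molar.

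Further endothelial surface and junction genes, 16 of 20 tested, had less in the mutant upper molar for 14 genes (median -0.20) and in the mutant lower molar for 8 (median 0.00). Their summed FPKM was 75.1, 70.3, 56.0 and 69.4 in the control upper, control lower, mutant upper and mutant lower molar. The mutant upper molar was again the lowest of the 4 sums. Cd93, a receptor of endothelium and some white cells, had 10.01 FPKM (upper) and 9.18 FPKM (lower) in controls, against 6.93 and 7.12 FPKM in mutants (limma adjusted p = 0.21). Ramp2, the partner of the adrenomedullin receptor, had 9.06 FPKM (upper) and 6.68 FPKM (lower) in controls, against 6.35 and 5.82 FPKM in mutants. Cd34, a sialomucin of endothelium and blood progenitors, had 9.85, 10.4, 8.27 and 13.2 FPKM in the control upper, control lower, mutant upper and mutant lower molar, and the semaphorin receptor gene Plxnd1 had 9.58, 8.87, 7.41 and 9.10 FPKM.

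Of the transcription factors of endothelial cells, 11 of 17 were tested, with 10 lower in the mutant upper and 8 lower in the mutant lower molar. Sox18, a factor of vascular and lymphatic endothelium, lay within 9.95 to 10.8 FPKM in all 4 libraries. The ETS factors Elk3, Ets1 and Ets2 measured 14.2, 8.26 and 11.2 FPKM in the control upper and 13.7, 6.76 and 10.2 FPKM in the mutant upper molar. In the control lower molar Elk3, Ets1 and Ets2 had 13.3, 7.69 and 10.02 FPKM, and in the mutant lower molar 12.4, 7.998 and 7.10 FPKM. None of the 4 passed the test (limma adjusted p from 0.38 to 0.83). Etv2, which acts in the first endothelial progenitors, was listed at 0 in every library.

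Arterial, venous and Notch genes had 5 of 7 tested genes lower in the mutant in each molar, with medians of -0.36 and -0.38. The Notch ligand gene Jag1 had 12.2 FPKM (upper) and 13.8 FPKM (lower) in controls, against 9.20 and 7.48 FPKM in mutants (limma adjusted p = 0.15). Efnb2, the ephrin of arterial endothelium, had 7.64 FPKM (upper) and 10.3 FPKM (lower) in controls, against 5.75 and 7.67 FPKM in mutants. Its receptor Ephb4, of venous endothelium, had 24.4 FPKM (upper) and 25.4 FPKM (lower) in controls, against 29.0 and 27.0 FPKM in mutants. Nr2f2, a venous identity factor that facial mesenchyme also expresses, had 3.99 FPKM (upper) and 6.39 FPKM (lower) in controls, against 6.08 and 12.4 FPKM in mutants (0.68 higher, log2, limma adjusted p = 0.091). Jag1, Efnb2 and Ephb4 are likewise expressed outside endothelium, and their cell of origin was not measured.

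Of the lymphatic markers, Lyve1 and Prox1 were near the limit of detection. Lyve1 was listed at 0 in 3 libraries and at 0.116 FPKM in the mutant upper molar, and the lymphatic master factor Prox1 lay between 0.0560 and 0.192 FPKM. Flt4, the VEGF-C receptor, had between 3.28 and 4.61 FPKM, and Pdpn between 1.62 and 2.80 FPKM. In the BMP and TGF-beta branch, to which endoglin belongs, 6 of 9 tested genes had less in the mutant upper and 8 of 9 in the mutant lower molar. Bmpr2, the type 2 BMP receptor, had 30.8 FPKM (upper) and 28.1 FPKM (lower) in controls, against 24.9 and 19.2 FPKM in mutants (limma adjusted p = 0.21). Smad1 and Smad5 lay between 12.6 and 16.2 FPKM in every library, and Bmper, a BMP-binding protein, had 16.5, 12.6, 16.9 and 9.34 FPKM in the control upper, control lower, mutant upper and mutant lower molar. Gdf2 and Bmp10, the ligands of endoglin, were listed at 0 in every library.

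Markers of other cells that a capture can hold were read beside these values. Pericyte and smooth muscle genes (12 listed, 6 tested) summed to 67.6 FPKM (upper) and 62.7 FPKM (lower) in controls, against 46.0 and 42.3 FPKM in mutants. Without Rgs5 the other 11 genes summed to 35.8, 37.7, 37.0 and 32.8 FPKM in the control upper, control lower, mutant upper and mutant lower molar. Without it the mutant sum was thus not lower in the upper molar but remained lower in the lower molar. Of the 5 other genes tested, 3 had less in the mutant in each molar, while the abundant Pdgfrb had more. The part of this list in the endothelial values was not tested. limma called 1 of the 6 lower, the pericyte gene Rgs5, at 31.9 FPKM (upper) and 25.1 FPKM (lower) in controls, against 9.03 and 9.48 FPKM in mutants (adjusted p = 0.011). Pdgfrb, the PDGF receptor of pericytes and mesenchyme, had 14.1 FPKM (upper) and 15.6 FPKM (lower) in controls, against 20.2 and 16.1 FPKM in mutants, and Higd1b stayed below 0.1 FPKM.

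Erythroid genes (11 of 12 matched) summed to 1037, 921.1, 935.8 and 1094 FPKM in the control upper, control lower, mutant upper and mutant lower molar. The embryonic globin Hbb-y was the most abundant, at 521.9, 465.8, 483.1 and 574.4 FPKM in the same order, and Hba-x had 357.0, 313.0, 298.4 and 342.9 FPKM. White cell genes summed to between 11.8 and 14.9 FPKM, with Tyrobp at 1.77 to 3.38 FPKM and C1qb at 2.13 to 2.78 FPKM. Platelet genes summed to between 1.92 and 3.82 FPKM, with Pf4 highest in the mutant upper molar at 2.19 FPKM. The white cell sum was nearly equal in the control upper (11.9 FPKM) and mutant upper molar (11.8 FPKM). The platelet sum was highest in the mutant upper molar, where the endothelial sum was lowest, but it turned on Pf4. Pf4 had 19 approximate reads there and 5 to 8 in the other libraries, and 1 of the 5 platelet genes was tested. Of the epithelial genes, the keratin gene Krt5 lay between 4.99 and 7.75 FPKM, with its lowest value in the control upper molar, and Shh stayed below 0.1 FPKM. Neuron and glia genes summed to 3.12, 2.79, 1.58 and 2.32 FPKM in the control upper, control lower, mutant upper and mutant lower molar, so this sum too was lowest in the mutant upper molar, and its part in the endothelial values was not tested. Skeletal muscle genes summed to between 2.05 and 2.28 FPKM. Myod1, Myf5 and Myh3 stayed below 0.1 FPKM.

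**Figure D4:**
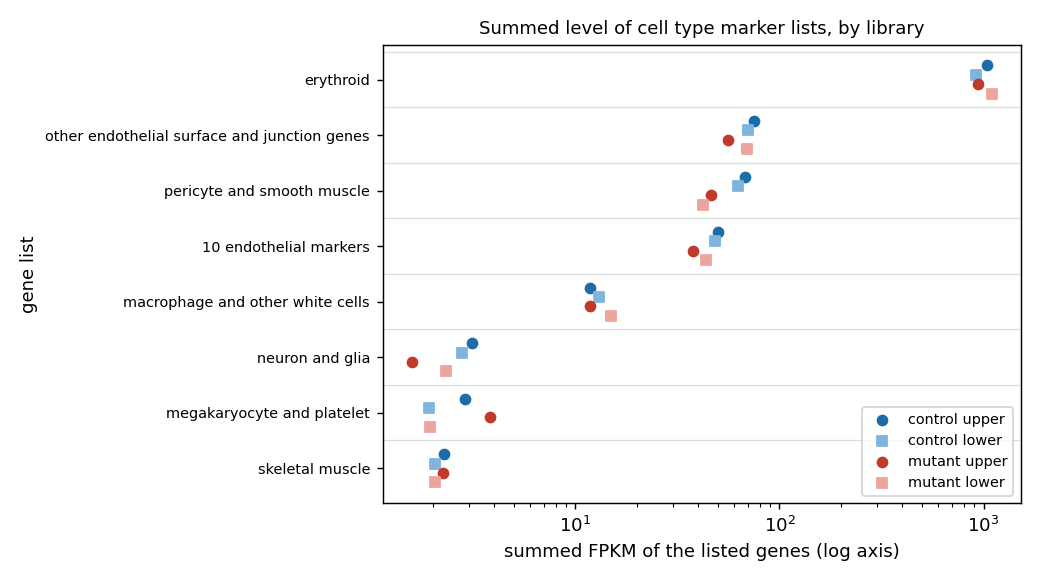
Summed FPKM (log axis) of the 10 endothelial markers and of 7 further marker lists in each library, with 1 point per library and no error bars. The endothelial markers run from 37.8 FPKM in the mutant upper to 50.1 FPKM in the control upper molar. The pericyte list, Rgs5 included, is lower in both mutants. Without Rgs5 its sum is lower in the mutant in the lower molar alone, with Pdgfrb raising the mutant upper sum.

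Genes with a like profile over the 4 libraries were named from 5305 genes averaging 5 FPKM or more outside the 10. Each profile was log2(FPKM + 1) minus the gene's mean, and the measure was the root mean square distance from the median profile of the 10 genes, which was 0.09, 0.07, -0.16 and -0.02 in the control upper, control lower, mutant upper and mutant lower molar. The 6 nearest were Ints7, Ankhd1, Scoc, Ensa, Lama4 and Ctage5, at distances of 0.0061 to 0.0159, where the median over the 5305 genes was 0.152. Ints7, a subunit of the Integrator complex, had 6.46, 6.31, 5.21 and 5.87 FPKM in the same order. Lama4, a laminin chain of vascular basement membranes, had 14.96, 14.5, 12.6 and 13.9 FPKM. The 10 genes themselves lay between 0.045 (Pecam1) and 0.167 (Cldn5) from their own median profile. Of the 5305 genes, 90 were nearer than Pecam1, so nearness to this profile does not mark a gene as endothelial. Among the 10, only Cdh5 and Pecam1 averaged 5 FPKM or more. The distances of the others hold more counting error, so they are not on a par with those of the 5305 genes.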

How the data were processed

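RNA of 4 pools, 1 for each genotype and molar, was extracted with an RNeasy Micro kit, turned into cDNA with NuGEN Ovation RNA-Seq v2 and made into libraries with an Illumina Nextera kit, per the labels' protocols. The aligners named are TopHat 1.4.1 and Bowtie 0.12.7, with mm9 as the build, per the submitters' processing notes. Later steps are not given in the sources used here, and the tables have the layout of Cufflinks output. The authors deposited FPKM for 28107 RefSeq transcripts, normalised by them to length and mapped reads, and the coverage (mean depth) of each, per the file headers. Strand use and the treatment of shared reads were not given, so amplification and reads shared between transcripts could affect single values.

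FPKM was summed per gene. Bases (coverage times length) were divided by 44.2, the mean over libraries of the median bases of single-read genes, which yields approximate reads. These are estimates, so no count test was run. Differences are on log2(FPKM + 1), which understates changes of low genes. limma 3.58.1 (R 4.3.3) was fitted to the 10502 genes averaging 1 FPKM or more, with genotype and molar as terms and an intensity trend, two-sided, with Benjamini-Hochberg adjustment at 0.05 over all genes. The fit has 1 residual and 5.77 prior degrees of freedom. It was tested on simulated data for the genotype comparison, where 54% of changes of 0.5 (log2) and 98% of changes of 1 were called. Every member effect for genotype was smaller than 0.5 in size. A count of 0 members called is therefore not evidence of no difference. Counting intervals are 95% Clopper-Pearson intervals of approximate reads, rescaled to FPKM.

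Named genes were the 10 members, Bmp4, the 4 most abundant genes of each vessel list, the 2 most abundant of each other list, any list gene that limma called, and the 6 nearest profiles. List genes named for being at or near 0 (Etv2, Gdf2, Bmp10, Higd1b, Shh, Myod1, Myf5, Myh3) were chosen after their values were seen. Members and lists were chosen with earlier results of these data known. Gene coordinates are mm9, counted from 1, and sequences are from RefSeq and GENCODE M21 on GRCm38. All 14 lists share the deposited symbols, and Ahsp was not matched. Some genes and the summed levels of the epithelial and mesenchyme lists are not reported here.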

Additional observations from a re-analysis of the deposited data

Results flagged for a closer look

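For 5 of the 10 endothelial genes the mutant was below the control in one molar and above it in the other, with 1 library per group, and the difference was not tested. Such opposite directions were found in 40.2% of all genes tested. Given as the lower molar difference minus the upper molar difference (log2 of FPKM + 1), it was 0.36 for Flt1, 0.28 for Tie1, 0.24 for Esam, 0.58 for Emcn and -0.38 for Eng. The median absolute size of this quantity over all genes tested was 0.18. In Flt1, Tie1, Esam and Emcn the lower molar difference was at most 0.05 above 0, so the direction there is within counting error, as is that of Eng in the upper molar.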

How the results depend on the processing

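No paired analysis was possible because each group has 1 library; the term for the molar already matches libraries of the same jaw. limma called 0 members for genotype and 0 for molar under all 12 alternatives, leaving out each library included (lowest and highest count 0). The fit held 2 members at a mean of at least 5 FPKM and all 10 under every other alternative. With a library left out the fit keeps the tested term alone, and the lone library is taken to vary like the others. Over all genes the genotype calls went from 84 to 0 with no filter on low values and to 0 with the highest transcript of each gene, where a count of 0 members says little. They were 146 at 5 FPKM or more, 133 without transcripts under 0.3 kb, 38 without the intensity trend, 7 without the molar term and 5 to 18 with a library left out. The molar calls over all genes went from 76 to 0 with no filter, 1 with the highest transcript, 127 at 5 FPKM or more, 139 without transcripts under 0.3 kb, 12 without the genotype term and 0 to 21 with a library left out, so 0 members called says little there too. In the upper molar at least 9 of 10 genes had less in the mutant under each alternative with 10 genes, and the median shift between molars kept its sign under each alternative run, including those without Cdh5 and without the genes of several transcripts, which were added after seeing the data. After rescaling by median ratios 1 of 10 genes, in place of 3, was lower in the mutant lower than in the mutant upper molar. At a mean of at least 5 FPKM only Cdh5 and Pecam1 remained, of which 2 were lower in the mutant lower molar, 2 in the control lower than upper molar and 0 in the mutant lower than upper molar. Some effects that were never called changed sign. For genotype these were Tie1 (0.062) and Esam (0.073) without the mutant upper library, with lowest values of -0.239 and -0.292 when a library was left out. The other genotype effects then ran from -0.213 to -0.168 for Kdr, -0.329 to -0.001 for Flt1, -0.232 to -0.057 for Tek, -0.221 to -0.014 for Eng, -0.589 to -0.225 for Cdh5, -0.152 to -0.106 for Pecam1, -0.452 to -0.002 for Cldn5 and -0.419 to -0.125 for Emcn. For molar, after rescaling, they were Kdr (0.009), Eng (0.028), Pecam1 (0.039) and Emcn (0.037), and Pecam1 with its highest transcript alone (0.189). Leaving out a library moved the molar effects between -0.156 and 0.462 for Cdh5, -0.027 and 0.319 for Flt1, -0.135 and 0.066 for Kdr, -0.17 and 0.14 for Eng, -0.091 and 0.076 for Pecam1, -0.285 and 0.274 for Emcn, 0.129 and 0.359 for Esam, 0.048 and 0.276 for Tie1, 0.053 and 0.23 for Tek, and -0.463 and -0.035 for Cldn5. Depth limits Esam and Cldn5 most, with 26 to 61 approximate reads per library.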
